A study of Homo sapiens with 5 samples.

Results

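Native let-7a was compared with a negative control, 1 library against 1, in HCT116, a human colorectal carcinoma cell line. The comparison used 2 of the 5 samples of the series and took, for each gene, the difference of log2(TPM + 1), native let-7a minus control, where TPM is a length-scaled share of all transcripts in the library. Genes were kept where their mean over all 5 libraries was at least 1 TPM, which left 14177 of 57773 gene identifiers.

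The design text describes the recipient cells as a Dicer knockout, and this holds for every group, the control included. Dicer cuts mature microRNAs out of their hairpin precursors, so cells without it make few microRNAs of their own. Per the labels, the transfections were a negative control, let7a-native, let7a-19A, miR17-native and miR17-13A, and the sources of the 19A and 13A samples are called methylated microRNA. The type of methylation, the oligonucleotide sequences, the identity of the negative control, the dose and the time are not stated in the labels. Whether the knockout is 1 clone is not given in the sources used here. The stated purpose of the series is the effect of methylated microRNAs on target mRNA degradation, for which the native form is the starting point. Per the labels' protocols, Isogen was used to extract total RNA, and the libraries were stranded and depleted of ribosomal RNA. With 1 library a side no difference below has a replicate check, and no test, error or p-value is given.

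Let-7 is an ancient microRNA family that accumulates as cells differentiate and is low in many tumours. A microRNA sits in an Argonaute protein, pairs through its seed, the bases near its 5′ end, with complementary sites mostly in 3′ untranslated regions (3′ UTRs), and recruits TNRC6 and deadenylases that shorten the life of the mRNA. Textbook let-7 targets are growth and stem-like genes, among them HMGA2, RAS genes, IGF2BP RNA-binding proteins and insulin pathway receptors.

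The mature sequence and its relatives are shown because the seed in capitals (bases 2 to 8) decides which sites were searched. RefSeq places let-7a-5p at 3 loci of GRCh38.p14, on chromosome 9 (MIRLET7A1), chromosome 11 (MIRLET7A2) and chromosome 22 (MIRLET7A3), and 11 human miRNAs of the RefSeq table share the seed. Base 19 of let-7a, counted from the 5′ end, is an A.
let-7a-5p: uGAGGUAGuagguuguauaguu
let-7b-5p: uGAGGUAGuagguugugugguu
let-7e-5p: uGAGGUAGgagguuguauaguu
let-7i-5p: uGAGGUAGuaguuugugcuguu
miR-98-5p: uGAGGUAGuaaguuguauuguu

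The sites below were read from annotated transcripts (GENCODE 29), 5′ to 3′, with the seed match in capitals, for targets that the results turn on. The full match, CTACCTCA, pairs with bases 2 to 8 and ends in an A, and is called an 8mer. A 7mer-m8 lacks the final A, a 7mer-A1 lacks the match to base 8, and a 6mer has only the match to bases 2 to 7.
HMGA2, 8mer: gccaacgttcgatttCTACCTCA
IGF2BP2, 8mer: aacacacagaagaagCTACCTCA
IRS2, 8mer: aaaacgaccacagtcCTACCTCA
CDC34, 8mer: tccttagacgacagaCTACCTCA
TGFBR1, 8mer: gggaggtcaattgttCTACCTCA
RIMKLA, 8mer: gactccacacttctgCTACCTCA
NRAS, 7mer-m8: aagttctcagaataaCTACCTCc
THBS1, 7mer-A1: acttacatacaaatatTACCTCA
HK2, 7mer-A1: tgactagtcatagaaaTACCTCA
RRM2, 8mer: tttaaaactgtgtagCTACCTCA
The last of these is shown because its gene was not lower with native let-7a although it carries a full 8mer.

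The libraries were alike in size of the detected transcriptome, with 14173 to 14396 genes at 1 TPM or more. Sequencing depth cannot be read from TPM values, so no counting interval or floor is given. Mitochondrially encoded genes held 12.6% of the TPM in the control and 10.002% with native let-7a, within a range of 9.36% to 12.6% over the 5 libraries. Ribosomal protein genes held 14.2% in the control and 15.7% with native let-7a. Of 10 colon epithelial markers, 8 stood at 1 TPM or more in both libraries, with summed levels of 7733 and 8076 TPM, while CEACAM5 and VIL1 were listed at 0 in all 5. Fibroblast markers summed to 11.8 and 17.2 TPM, of which COL1A1 held 10.8 and 16.3, and THY1 and DCN were listed at 0. Blood markers summed to 6.7 and 6.6 TPM with PTPRC listed at 0, and 3 endothelial markers to 0.4 and 0.5 TPM. Among 4 neuronal markers, TUBB3 alone accounted for most of the sums of 342.4 and 303.6 TPM. DICER1 was at 15.4 TPM in the control, a level that does not check the knockout, since cells that still have Dicer were not analysed here.

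The median difference over all 14177 genes was 0. At least 2-fold lower in TPM + 1 with native let-7a were 168 genes (1.19%), and at least 2-fold higher were 174 (1.23%). These 342 genes were mostly rare transcripts: 226 had a mean of at most 5 TPM over both libraries, and 129 were protein-coding, 72 of them lower and 57 higher. The share past 2-fold was 6.71% among genes up to 5 TPM, 1.87% from 5 to 20 TPM, 0.491% from 20 to 100 TPM and 0.564% above 100 TPM. Of 137 genes listed at 0 in 1 of the 2 libraries, 104 were past 2-fold. A count of 2-fold genes in this comparison is therefore mostly a count of low values.

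The control stood apart from the other libraries more often than native let-7a did. The control was the highest of the 5 libraries in 26.5% of genes and the lowest in 21.2%, against 20.4% and 11.8% for native let-7a. By this measure the control was not the only library often at an end. The 13A library was the highest in 12.6% and the lowest in 33.9%, and native miR-17 the highest in 26.4% and the lowest in 9.5%. Among 9127 genes above 0 in all libraries and at 10 TPM or more in either of the compared ones, the control lay at least 1.5-fold below every other library in 52 genes and above in 36. For native let-7a the same counts were 10 and 6, for native miR-17 4 and 1, and for the 13A library 10 and 3. A difference from the control that is also seen in both miR-17 libraries cannot be told apart from a property of the control library, so the values of all 5 libraries stand beside the main results.

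Of 87 genes listed as let-7 targets, 75 passed the filter, and 62 of these were lower with native let-7a than in the control, against 47.9% of all genes. Their median difference was -0.25, with a middle 50% from -0.44 to -0.07, where the median over all genes was 0. The list was written with earlier results of these data known, so its counts are not an independent check. Only HMGA2, RIMKLA and HK2 were past 2-fold, all lower, against 1.19% of all genes, and none was 2-fold higher. The other 12 listed targets, such as LIN28A, LIN28B, TRIM71, IGF2BP1 and MYCN, stood at no more than 1.1 TPM in any library.

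Native let-7a was the lowest of the 5 libraries in 26 of the 75 targets, or 34.7%, where the share over all genes was 11.8%. It lay below the control and both miR-17 libraries in 32 of 75, against 19.2% of all genes. Against the mean of both miR-17 libraries in place of the control, 45 of 75 targets were lower with native let-7a, where 44.9% of all genes were, and the median difference shrank to -0.08. The control was itself the highest library for 36 of the 75, against 26.5% of all genes. The list thus lay further from 0 against the control than against the miR-17 libraries. Set beside, the 19A library minus the same control gave a median of -0.19 over these targets. Over the 12022 genes searched for sites below, that median was -0.045.

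**Figure D1:**
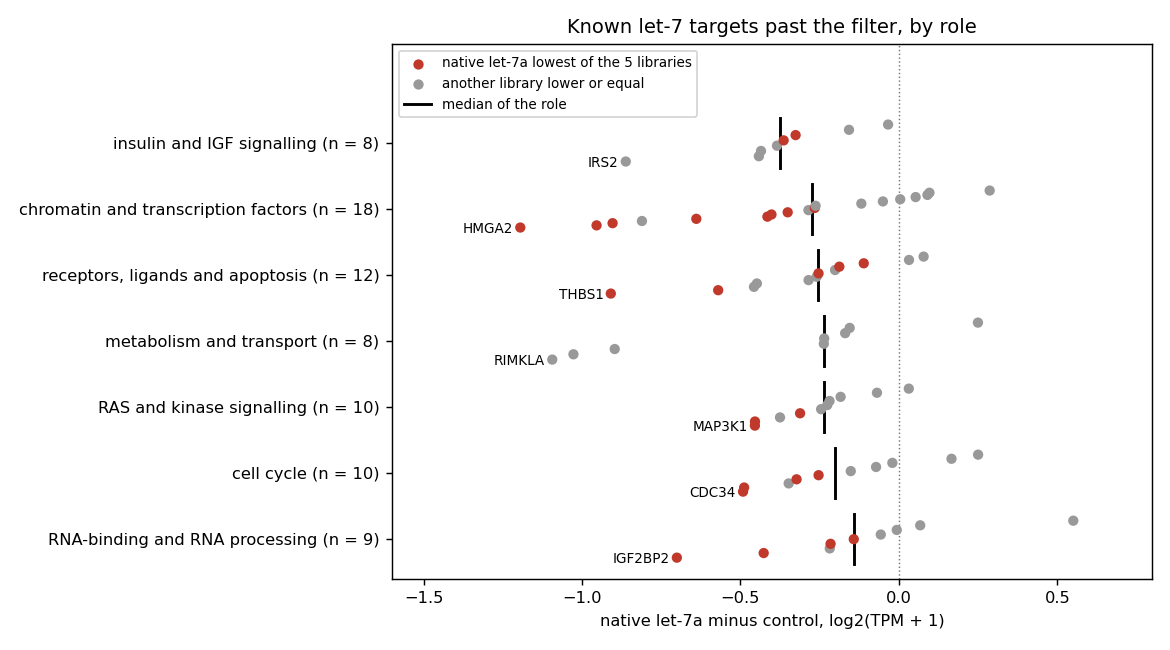
Difference of log2(TPM + 1), native let-7a minus control (horizontal axis), for the 75 let-7 targets past the filter, grouped by role, with the lowest member of each role named. Black lines mark medians, which run from -0.37 to -0.14, and red dots are the 26 genes for which native let-7a was the lowest of the 5 libraries.

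Chromatin proteins and transcription factors were the largest role, with 13 of 18 lower and a median of -0.28. The share to set beside such counts, here and in the other roles, is the 47.9% of all genes that were lower. HMGA2, an architectural chromatin protein and the classic let-7 target, stood at 56 TPM in the control and 23.9 with native let-7a, beside 28.1 with the 19A form, 36.5 with native miR-17 and 31 with the 13A form. That is 2.29-fold lower in TPM + 1 (-1.19), and native let-7a was the lowest of the 5 with the 19A library next, but the control was also the highest by a wide step. Against the miR-17 libraries the difference was -0.48. HMGA2 has 7 sites of 7 or 8 bases in its richest annotated 3′ UTR, while its longest annotated 3′ UTR, of another transcript, holds only a 6mer.

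PLAGL1, a zinc finger transcription factor, was at 11.4 TPM in the control, 5.4 after native let-7a, 8 with the 19A form, 10.2 with native miR-17 and 7.7 with the 13A form (-0.95). Its relative PLAGL2 went from 26.5 TPM to 13.7, beside 17, 18.4 and 16.1 in the 19A, native miR-17 and 13A libraries (-0.90). For both genes native let-7a was the lowest of the 5. PLAGL1 has no let-7a site in its 3′ UTRs, and both genes hold an 8mer in the coding region. ARID3A, a DNA-binding protein with 8mers in both places, was at 7.1 TPM and 4.2 (-0.64), again the lowest library.

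Not every regulator followed. HMGA1, the abundant sister of HMGA2 with a single 7mer-m8, was at 2194 TPM in the control and 2276 with native let-7a (0.05). MYC, which has no site in the searched 3′ UTR, was at 283.4 and 284.2 TPM. ONECUT2, a homeodomain factor with 6 sites in a very long 3′ UTR, was at 3.1 and 4 TPM (0.29).

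RNA-binding and RNA-processing targets had a median of -0.14, with 7 of 9 lower. IGF2BP2, which binds and stabilises growth-related mRNAs, was at 150 TPM in the control, 91.9 after native let-7a, 98.5 with the 19A form, 125.9 with native miR-17 and 119.4 with the 13A form. It was 1.63-fold lower in TPM + 1 (-0.70), and both let-7a libraries lay below the other 3. DICER1 was at 11.2 TPM with native let-7a, the lowest of the 5, beside 12.5, 15.9 and 12.9 (-0.43 from the control). CPEB2, a regulator of poly(A) tails with 3 sites, was higher, at 1.8 TPM in the control and 3.1 with native let-7a (0.55). At such low levels the difference depends on the pseudocount, and it was 0.75 with 0.1 and 0.25 with 5.

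RAS and kinase genes had a median of -0.24, with 9 of 10 lower. NRAS, a small GTPase with 2 sites, was at 100.8 TPM in the control, 73.3 after native let-7a, 82.4 with the 19A form, 97.8 with native miR-17 and 90.3 with the 13A form (-0.45). MAP3K1, a kinase upstream of JNK, was at 13.8, 9.8, 11.1, 17.6 and 13.8 TPM in the same order (-0.45). In both genes the let-7a libraries were the 2 lowest. HRAS, with no site, was at 86.1 TPM in the control and 88 with native let-7a (0.03).

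Insulin and IGF pathway targets had the lowest median of any role, -0.37, and all 8 were lower, against 47.9% of all genes. IRS2, an adaptor that links insulin receptors to PI3 kinase, was at 25.9 TPM in the control, 13.8 after native let-7a, 17.4 with the 19A form, 14.5 with native miR-17 and 12 with the 13A form. IRS2 was 1.82-fold lower than in the control (-0.86), yet the 13A library was lower still. INSR, the insulin receptor, was at 13.4 TPM in the control and 9.6 with native let-7a (-0.44), with 11.1, 10.5 and 8.3 in the other 3. Over the 8 genes the median against the miR-17 libraries was -0.04, with 4 of 8 lower, near the 44.9% of all genes. RPS6KB2, a ribosomal S6 kinase with a coding 8mer and no 3′ UTR site, was at 15.6 TPM in the control and 11.9 with native let-7a (-0.36), also below the 20.5 and 21.5 TPM of the miR-17 libraries. IGF2, a growth factor, was at 16.3 TPM in the control, 12.8 after native let-7a, 14.9 with the 19A form, 19.8 with native miR-17 and 17.6 with the 13A form (-0.33). In these 2 genes native let-7a was the lowest of the 5.

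Cell cycle targets had a median of -0.20, with 8 of 10 lower. CDC34, a ubiquitin-conjugating enzyme of the SCF ligases, was at 136.4 TPM in the control, 96.7 after native let-7a, 108.9 with the 19A form, 151.1 with native miR-17 and 142.5 with the 13A form (-0.49). Both let-7a libraries lay below the other 3. CDC25A, a phosphatase that activates CDKs, was at 8.4 TPM and 5.7 (-0.49), the lowest library. RRM2, a subunit of ribonucleotide reductase, went the other way at 63 TPM in the control and 75.1 with native let-7a, the highest of the 5 (0.25).

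Receptors, ligands and apoptosis genes had a median of -0.26, with 10 of 12 lower. TGFBR1, a TGF-beta receptor kinase, was at 33.6 TPM in the control, 22.3 after native let-7a, 25.3 with the 19A form, 36.1 with native miR-17 and 32.3 with the 13A form (-0.57). THBS1, a secreted matrix protein that activates TGF-beta, was at 6.7, 3.1, 3.9, 7 and 5.1 TPM in that order (-0.91). The let-7a libraries were again the 2 lowest in both. BCL2L1, which encodes the survival protein BCL-XL and carries an 8mer, was at 357.6 TPM in the control and 377.5 with native let-7a (0.08).

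**Figure D2:**
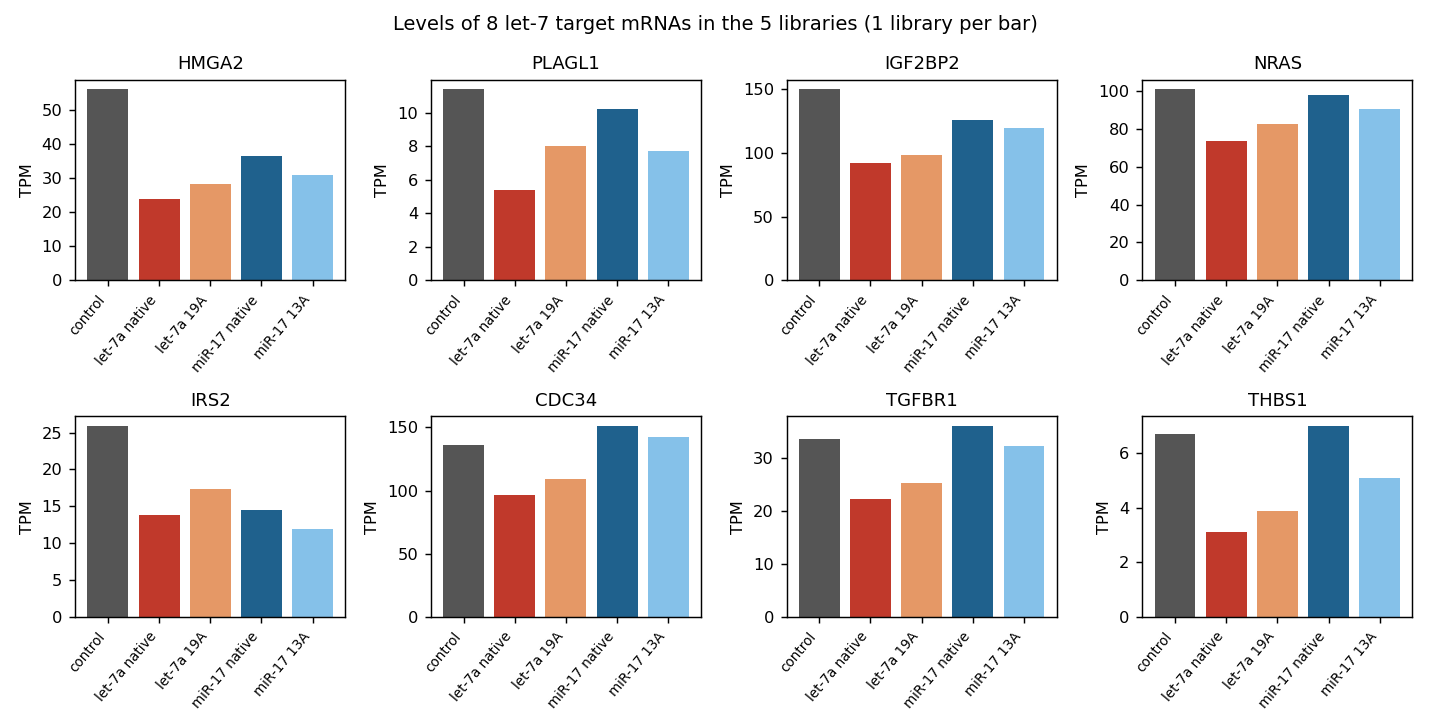
TPM (vertical axes, from 0) of 8 let-7 targets in each of the 5 libraries, 1 bar per library. In HMGA2, PLAGL1, IGF2BP2, NRAS, CDC34, TGFBR1 and THBS1 the red bar of native let-7a is the lowest, while IRS2 is as low in the miR-17 libraries.

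Metabolic targets had a median of -0.24, with 7 of 8 lower, against 47.9% of all genes. Native let-7a was the lowest library in none of them, against 11.8% of all genes. HK2, the hexokinase that commits glucose to glycolysis, was at 79.5 TPM in the control, 38.5 after native let-7a, 59.3 with the 19A form, 37.6 with native miR-17 and 37.1 with the 13A form (-1.03). RIMKLA, a peptide-forming ligase of neural metabolism, was at 10.1, 4.2, 5.7, 3.6 and 3.5 TPM (-1.09). Both were about as low in the miR-17 libraries, and the role's median against these was 0.14, above 0. HK2 and PDK1 also belong to the hypoxia list below, and without them the median of all targets was -0.25.

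Across the transcriptome, 12022 genes had an annotated 3′ UTR of at least 50 nucleotides that could be searched, and 48.9% of them were below the control. The 525 genes with an 8mer had a median difference of -0.09, with 62.5% below the control. Genes whose best site was a 7mer-m8 (821 genes) had a median of -0.07, a 7mer-A1 (813) -0.07, a 6mer (1144) -0.04, and no site (8719) 0.02. Native let-7a was the lowest of the 5 libraries in 100 of the 525 8mer genes and in 9.76% of genes with no site, where the share over searched genes was 11.4%. The steps between classes are small beside the spread within each, since the middle 50% of 8mer genes ran from -0.24 to 0.08. Genes with 2 sites of 7 or 8 bases (327) had a median of -0.13 and those with 1 site (1754) -0.07, while the 78 genes with 3 or more were at -0.06.

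Against the mean of both miR-17 libraries these medians came to -0.03 for 8mer genes and -0.003 for all 2159 genes with a 7mer or 8mer, beside 0.04 for genes with neither. The order of site over no site was kept, and the distance between them was smaller than against the control for the whole set. The miR-17 libraries carry a change of their own, as genes with a miR-17 8mer in the 3′ UTR had a median of 0.29 on that scale and of -0.04 against the control. The same search with 10 other microRNAs not in the experiment gave 8mer medians from -0.05 to 0 against the control. The let-7a value of -0.09 lay below all 10.

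3′ UTR length moved with the difference as well. Searched genes in the shortest tertile (50 to 796 nucleotides) had a median of 0.06, the middle tertile -0.01 and the longest tertile -0.04. Since long 3′ UTRs hold more sites, the classes were read within tertiles. In the shortest tertile the 196 genes with a 7mer or 8mer had a median of -0.09 and the 3811 without 0.07, the widest gap of the 3. In the middle tertile the medians were -0.08 and 0, and in the longest -0.07 and -0.03.

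Short 3′ UTRs with an 8mer gave the clearest set. Of 43 such genes, 33 (76.7%) were below the control, where 38.6% of all searched genes in this tertile were, and the median was -0.17. Native let-7a was the lowest of the 5 libraries in 14, or 32.6%, against 439 of the 4007 genes of the tertile. It was below the control and both miR-17 libraries in 23 of 43, or 53.5%. The share of 19.2% for this measure is over all 14177 genes and was not taken within the tertile. Against the miR-17 libraries their median was -0.22, so the set was lower with either reference. Among the 29 with at least 10 TPM in the control, 24 were below it, with a median of -0.21.

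The 2 genes below were picked after their values were seen, and with CDC34, shown above, they were among the lowest of that set at 10 TPM or more in the control.
DTX2, 8mer: gggcttaggatgcagCTACCTCA
KLHDC8B, 8mer: accttcctaccctacCTACCTCA
KLHDC8B, a kelch-domain protein, was at 31 TPM in the control, 25 after native let-7a, 28.1 with the 19A form, 53.5 with native miR-17 and 49.8 with the 13A form (-0.30). DTX2, a ubiquitin ligase of the Deltex family, was at 18.4, 14.3, 15.1, 18.5 and 16.1 TPM in that order (-0.34). In both the native let-7a library was the lowest and the 19A library next.

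Genes with let-7a matches in the coding region were also lower than genes without. The 547 genes with a let-7a 8mer in the coding region had a median of -0.10, with 67.3% below the control, and the 964 with a 7mer-m8 -0.08. Genes whose best coding site was a 7mer-A1 had a median of -0.03, a 6mer -0.02 and none 0.02. Sites of 7mer-m8 or 8mer type in the coding region without a 3′ UTR site marked 1221 genes with a median of -0.07, 3′ UTR sites alone 1869 genes with -0.07, both together 290 genes with -0.12, and neither 8642 genes with 0.03.

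Coding length, like 3′ UTR length, moved with the difference, and the gap between genes with and without a coding 7mer-m8 or 8mer was present within each tertile of coding length. The medians were -0.02 and 0.07 in the short tertile, -0.08 and 0 in the middle, and -0.10 and -0.04 in the long tertile. It was present within each tertile of coding GC content too, at -0.07 against 0.02, -0.08 against 0, and -0.11 against 0.01. For miR-17 sites, not part of these 2 libraries, the medians within tertiles of coding length were 0.10 against 0.07, -0.01 against -0.01, and -0.06 against -0.06. Within tertiles of coding GC content, genes with miR-17 sites were the lower ones, at -0.02 against 0.02, -0.03 against -0.01, and -0.04 against 0. The 233 genes with a coding miR-17 8mer had a median of -0.07, with 60.1% below the control, close to the let-7a 8mer value. Against the miR-17 libraries, genes with a coding let-7a 7mer-m8 or 8mer had a median of 0.005 and those without 0.03, a narrower gap than against the control. Among the listed targets, 10 hold a coding 8mer, and all 10 were below the control, where 62 of all 75 targets were. Of the 21 targets with a coding 7mer-m8 or 8mer, only 3 had no 7mer or 8mer in any 3′ UTR. The count therefore cannot separate coding sites from 3′ UTR sites.

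**Figure D3:**
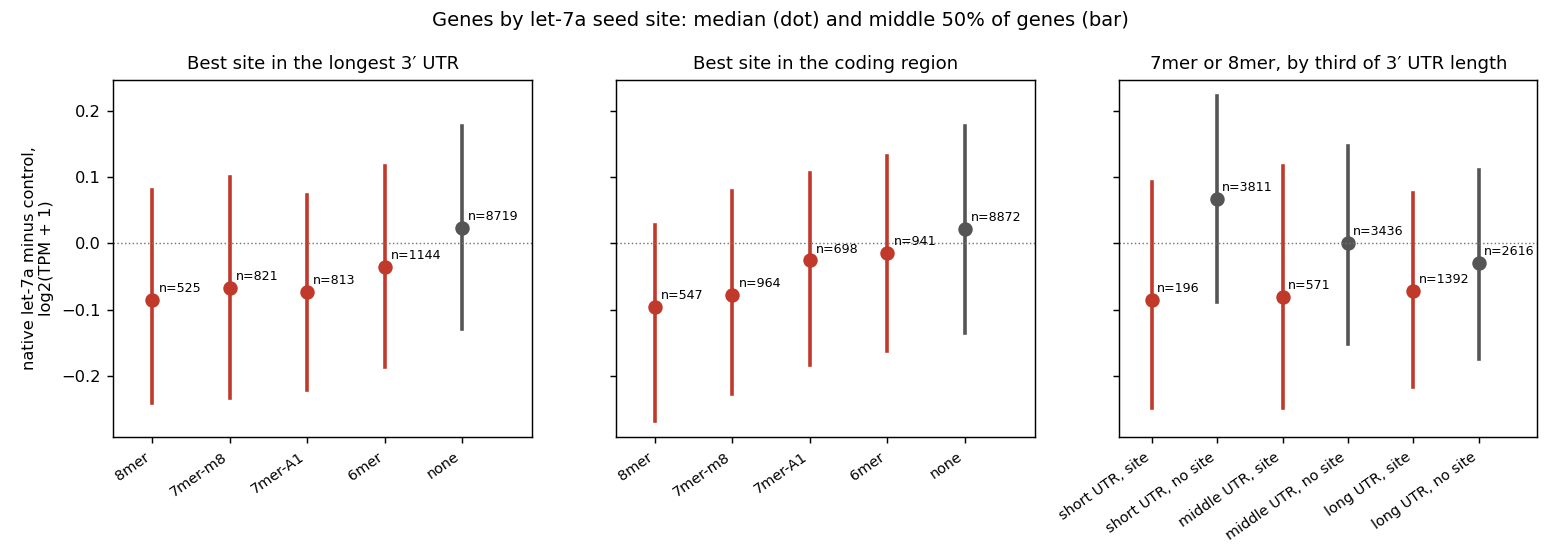
Difference of log2(TPM + 1), native let-7a minus control (vertical axis), for genes grouped by their best let-7a site in the longest 3′ UTR (left), in the coding region (middle) and by presence of a 7mer or 8mer within tertiles of 3′ UTR length (right). Dots are medians and bars the middle 50% of genes, which overlap between all classes; the gap between red and grey is widest for short 3′ UTRs.

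Sorted by the surroundings of a single 8mer, the medians differed little and, for flanks, in no order. The medians were -0.10, -0.02 and -0.07 for flanks low, middle and high in A and U, and -0.10 for sites within 500 nucleotides of a 3′ UTR end against -0.05 deeper inside. In 3′ UTRs of the shortest tertile every site lies within 500 nucleotides of an end. The split by distance therefore cannot be told apart from one by 3′ UTR length. Where the bases upstream of the seed match could pair with let-7a from base 9 on in a run of at most 3, 4, or at least 5 bases, the medians were -0.05, -0.10 and -0.09.

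Counting only 8mers in the longest annotated 3′ UTR, which leaves out HMGA2, the 8 genes at 10 TPM or more in the control that were lowest with native let-7a were C8orf58, RIMKLA, HDHD1, IRS2, PLXND1, FAM222B, IGF2BP2 and TMEM2. C8orf58, a gene of little known function, was at 24.2 TPM in the control, 8.9 after native let-7a, 16.1 with the 19A form, 16.5 with native miR-17 and 15.5 with the 13A form (-1.35). Native let-7a was 1.67-fold in TPM + 1 below the next library. PLXND1, a semaphorin receptor, was at 20.6, 11.6, 13, 16.7 and 13.8 TPM in the same order (-0.78). HDHD1, a nucleotide phosphatase now called PUDP, was at 23.3, 12.1, 15.8, 14.6 and 13.5 TPM (-0.89). TMEM2, a cell-surface hyaluronidase now called CEMIP2, was at 14.4, 8.6, 10.3, 14 and 10.4 TPM (-0.68). FAM222B was at 32.3, 18.7, 20.2, 20.8 and 17.2 TPM (-0.76), as low with the 13A form as with native let-7a.

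Among protein-coding genes above 0 in all libraries and at 20 TPM or more in either of the compared ones, the 10 lowest were AP003419.11, ANGPTL4, SLC2A3, SLC5A3, PLOD2, SLC2A1, C8orf58, ARRDC3, UBASH3B and KIAA1199. AP003419.11 was at 36 TPM in the control, 2.4 after native let-7a, 33.6 with the 19A form, 31.9 with native miR-17 and 28.5 with the 13A form (-3.44). No other gene of the rule differed from all other libraries by as much, 8.68-fold in TPM + 1 from the next. Whether so low a value in 1 library came from the assignment of reads among overlapping transcripts was not tested. UBASH3B, a phosphatase that dampens receptor tyrosine kinase signals, was at 33.2, 12.6, 16.6, 19.6 and 17 TPM (-1.33), lowest with native let-7a. KIAA1199, a hyaluronan-degrading protein also called CEMIP, was at 75.3, 30.3, 32.8, 44.9 and 33.2 TPM (-1.29). SLC5A3, a myo-inositol transporter, appears in 2 rows with near-equal values, at 31 and 31.2 TPM in the control and 9.6 and 9.3 with native let-7a, and how reads were divided between them is not known. ARRDC3, an arrestin-like adaptor that dampens growth signals, was at 109.6 and 42.7 TPM (-1.34) and at 51.6 and 51.4 TPM in the miR-17 libraries.

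The 10 highest by the same rule were RP11-1035H13.3, RP11-463D19.2, CACUL1, C6orf1, MNAT1, CANX, GDF15, IFITM1, SLC7A11 and NARS2. CANX, the calnexin chaperone of the endoplasmic reticulum, was at 287.2 TPM in the control, 631.3 after native let-7a, 666.2 with the 19A form, 698.1 with native miR-17 and 602.4 with the 13A form (1.13). CACUL1, a cullin-related protein, was at 28.7, 76, 75.9, 76.1 and 66 TPM (1.37). For both, and for MNAT1 and IFITM1, the control was the low library and the other 4 lay together. GDF15, a stress-induced cytokine, differed in that it was at 357.9 TPM in the control, 778.5 after native let-7a, 625 with the 19A form and only 406.6 and 395.8 in the miR-17 libraries (1.12).

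Genes in which native let-7a lay at least 1.5-fold in TPM + 1 beyond every other library included, on the low side, AP003419.11, EEF1E1-BLOC1S5, C8orf58 and SLC2A3. EEF1E1-BLOC1S5, a readthrough transcript named after the EEF1E1 and BLOC1S5 genes it spans, so that reads of all 3 may have been mixed, was at 15.6 TPM in the control, 2 after native let-7a, 8 with the 19A form, 12.9 with native miR-17 and 9 with the 13A form (-2.47). On the high side stood AC007009.1, HLA-DRA, DKK1, NSFP1, RP11-463D19.2 and TLX3. DKK1, a secreted Wnt antagonist, was at 97.1 TPM in the control, 155.3 after native let-7a, 98.4 with the 19A form, 41.7 with native miR-17 and 43.4 with the 13A form (0.67). HLA-DRA, a class II antigen-presenting chain, was at 8.5, 16.7, 10, 9 and 7.8 TPM (0.90), and TLX3, a homeobox factor, at 5.5, 11.6, 7.2, 7.3 and 5.7 (0.95).

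Several other gene lists lay further from 0 than the let-7 targets. Those lists too were written with earlier results of these data known. The hypoxia and glycolysis list, genes that HIF transcription factors switch on when oxygen is short, had a median of -0.70, with 39 of 40 lower than in the control against 47.9% of all genes. Past 2-fold were 9, all lower, against 1.19% of all genes. ANGPTL4, a secreted inhibitor of lipoprotein lipase, was at 57.5 TPM in the control, 12.7 after native let-7a, 32.8 with the 19A form, 11.3 with native miR-17 and 10.7 with the 13A form (-2.09). SLC2A1, the glucose transporter GLUT1, was at 608.6, 235.7, 406.1, 300.5 and 286.8 TPM (-1.36). SLC2A3, the neuronal-type transporter GLUT3, was at 21.6, 5.8, 13.5, 9.7 and 10.1 TPM (-1.73), and CA9, a surface carbonic anhydrase, at 3.7, 0.6, 2.2, 0.2 and 0.2 TPM (-1.55). PLOD2, a collagen lysyl hydroxylase, was at 52.2 and 18.6 TPM (-1.44). The exception was PFKL, the liver-type phosphofructokinase, at 30.8 and 35.5 TPM (0.20).

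The control was the highest library for 38 of the 40 hypoxia genes, where it was in 26.5% of all genes. Against the miR-17 libraries in place of the control the median was 0.10, on the other side of 0. The 19A library lay between, with a median of -0.33 from the same control, beside -0.045 over the 12022 searched genes. All libraries with a microRNA were thus below the control on this list, and the part of let-7a in it cannot be told apart from the control library's own state.

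Promoters of this list were searched because its members moved together. RefSeq windows of 250 bases before to 50 after the start (GRCh38.p14) matched 10495 of the 14177 genes by symbol. The core ACGTG of the hypoxia response element, on either strand, occurred in 19 of 36 matched promoters of the list, or 52.8%, against 26.7% of all matched genes and 21.6% of the whole promoter table. With GCGTG allowed as well it was 27 of 36 against 63.5%. The list was made of genes that HIF factors switch on, so such shares can follow from that choice and are no result of these libraries. Among hypoxia genes with ACGTG the median difference was -0.79 and among those without it -0.45. The promoter of CA9 (chr9:35673678-35673977, + strand) holds it close to the start, shown here in capitals as read along the gene.
CA9: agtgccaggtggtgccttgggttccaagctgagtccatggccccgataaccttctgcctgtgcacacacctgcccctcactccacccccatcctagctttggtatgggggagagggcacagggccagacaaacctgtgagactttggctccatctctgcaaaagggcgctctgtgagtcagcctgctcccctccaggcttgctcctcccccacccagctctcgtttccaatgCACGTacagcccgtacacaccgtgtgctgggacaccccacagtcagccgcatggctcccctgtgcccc

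The amino acid response driven by ATF4, which raises amino acid synthesis, transport and tRNA charging under stress, had a median of 0.46, with 34 of 38 genes higher than in the control against 49.9% of all genes. Members past 2-fold were GDF15 and SLC7A11, against 1.23% of all genes. SLC7A11, the cystine importer, was at 27.5 TPM in the control, 57.5 after native let-7a, 48.3 with the 19A form, 60.6 with native miR-17 and 47.1 with the 13A form (1.04). CHAC1, which degrades glutathione, was at 59.6, 104.2, 63.9, 133 and 119.2 TPM (0.80), and ASNS, asparagine synthetase, was at 194.9 TPM in the control and 320.1 with native let-7a (0.71). All 8 tRNA synthetases and all 8 transcription factors and regulators of the list were higher. DDIT4, an inhibitor of mTORC1 that hypoxia also induces, was at 978.7 TPM in the control and 909.1 with native let-7a (-0.11). The control was the lowest library for 29 of the 38, against 21.2% of all genes, and the median against the miR-17 libraries was 0.08.

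A composite element bound by ATF4 dimers, TGATGNAA on either strand, occurred in 9 of 32 matched promoters of the list, or 28.1%, against 1.58% of all matched genes and 3.67% of the promoter table. Since the list was chosen as genes of the ATF4 response, this share too can follow from that choice and is no result of these libraries. The median difference was 0.57 with the element and 0.43 without. ASNS (chr7:97872359-97872658, - strand) is shown with the element in capitals.
ASNS: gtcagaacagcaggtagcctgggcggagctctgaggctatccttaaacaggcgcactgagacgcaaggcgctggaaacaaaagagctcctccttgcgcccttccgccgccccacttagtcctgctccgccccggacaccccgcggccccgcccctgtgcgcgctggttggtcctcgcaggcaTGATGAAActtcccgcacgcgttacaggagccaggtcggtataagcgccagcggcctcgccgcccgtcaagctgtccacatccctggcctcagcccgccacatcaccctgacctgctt
A match in these windows is a description of the letters and says nothing of binding in these cells.

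**Figure D4:**
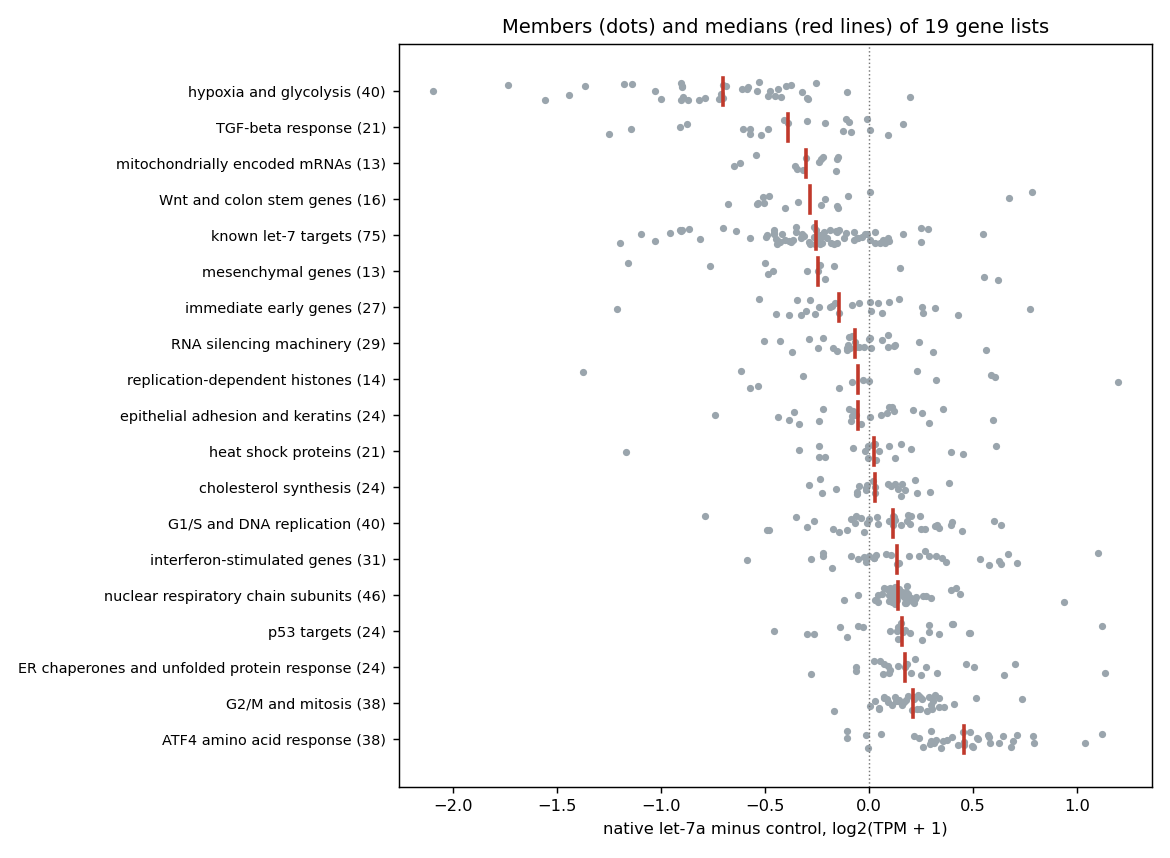
Difference of log2(TPM + 1), native let-7a minus control (horizontal axis), for the members of 19 gene lists past the filter; dots are genes, red lines medians and the number after each name is its count of genes. The hypoxia list lies furthest left, with a median of -0.70, and the ATF4 list furthest right, with 0.46.

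In the list of mitotic genes the native let-7a library, not the control, was at one end of the 5. The G2/M list, genes of spindle, kinetochore and chromosome segregation, had a median of 0.21. Of its 38 genes, 37 were higher than in the control, against 49.9% of all genes, and none was past 2-fold. Native let-7a was the highest of all 5 libraries for 36 of the 38, where the share over all genes was 20.4%. KIF4A, a chromosome-bound kinesin, was at 22.2 TPM in the control, 37.6 after native let-7a, 33.7 with the 19A form, 27.7 with native miR-17 and 29.6 with the 13A form (0.73). NDC80, which couples kinetochores to microtubules, was at 21.4, 31, 22.9, 21 and 21.1 TPM (0.51), and MAD2L1, of the spindle checkpoint, at 28.1, 37.6, 29.5, 28.2 and 27.5 (0.41). In NDC80 and MAD2L1 the other 4 libraries lay close together. AURKB, the kinase of the chromosomal passenger complex, was the exception at 43.8 and 38.9 TPM (-0.17).

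The gap widened rather than shrank against the miR-17 libraries, with a median of 0.48, while the 19A library minus the control gave -0.08. Both miR-17 libraries lay below the control on this list. Relative to each gene's mean over the 5 libraries, their medians were -0.208 (native) and -0.145 (13A), beside 0.086 in the control. Over the 12022 searched genes the 19A library minus the control had a median of -0.045. Genes of 1 process vary together, so the 38 are not 38 separate observations of this library. The list of G1/S and DNA replication genes was less uniform, with a median of 0.12 and 24 of 40 higher, against 49.9% of all genes. Native let-7a was the highest library in 8 of the 40, near the 20.4% over all genes. RPA2, which coats single-stranded DNA, was at 58.8 TPM in the control and 92 with native let-7a (0.64), and CCNE2, a cyclin of S phase entry, at 4.7 and 2.3 (-0.79). Against the miR-17 libraries the G1/S median was -0.17, the other way.

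**Figure D5:**
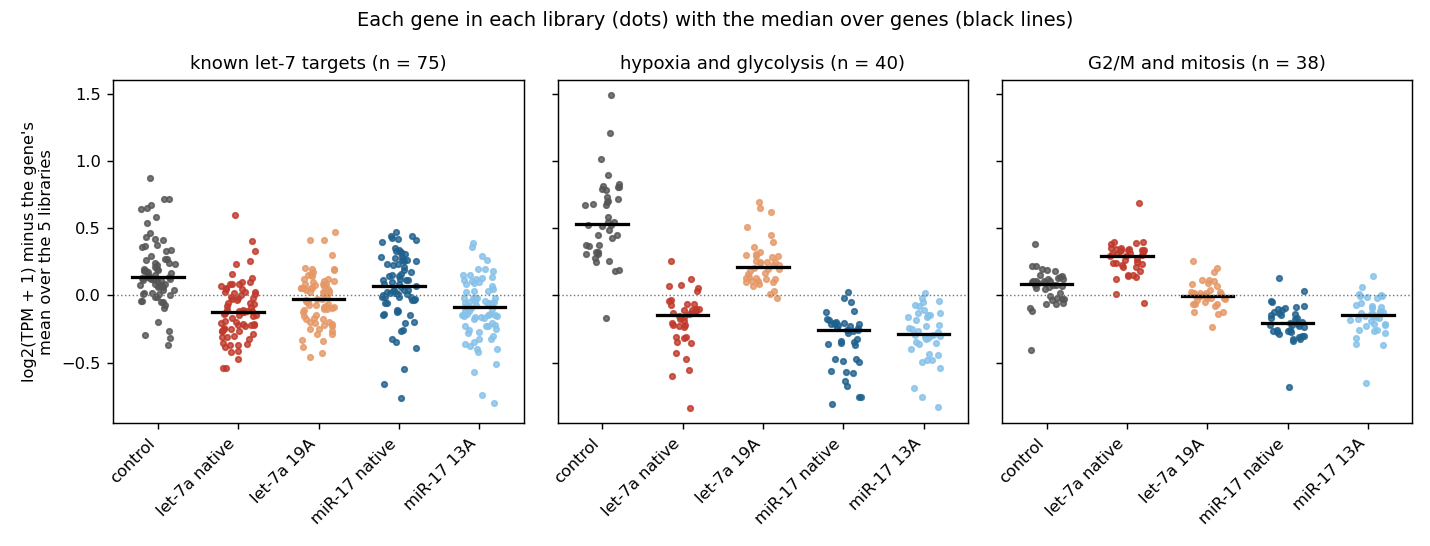
For 3 gene lists, log2(TPM + 1) of each gene minus its mean over the 5 libraries (vertical axis), by library; dots are genes and black lines medians. In the hypoxia list the control stands highest, with a median of 0.53, and in the G2/M list native let-7a stands highest, with 0.30, while among let-7 targets the medians run from -0.12 with native let-7a to 0.14 in the control.

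TGF-beta response genes had a median of -0.39, with 18 of 21 lower, against 47.9% of all genes. SMAD7, the inhibitory SMAD, was at 14.2 TPM in the control, 5.4 after native let-7a, 7.6 with the 19A form, 11.3 with native miR-17 and 8.8 with the 13A form (-1.25). BAMBI, a decoy receptor, was at 52.4, 23.2, 27.2, 28.3 and 30.1 TPM (-1.14). Native let-7a was the lowest library in both and in 9 of the 21, against 11.8% of all genes. The list kept its sign against the miR-17 libraries, at -0.25. LTBP2, named as a member of the latent TGF-beta binding protein family, was the furthest the other way at 2.3 and 2.7 TPM (0.17).

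Wnt and colon stem genes had a median of -0.28, with 13 of 16 lower, against 47.9% of all genes. NOTUM, a secreted Wnt deacylase, was at 35.6, 21.9, 23.5, 27.8 and 28.1 TPM in the order given above (-0.68). SOX4, a progenitor transcription factor, was at 252.4, 173.7, 182.4, 386 and 302.4 TPM (-0.54), low in both let-7a libraries and high in both miR-17 libraries. SP5, a direct Wnt target, was higher, at 4 and 7.6 TPM (0.78). Mesenchymal genes had a median of -0.24 with 10 of 13 lower, and immediate early genes -0.14 with 16 of 27 lower. The latter count is not far from the share of 47.9% over all genes. LOXL2, a lysyl oxidase of the matrix, was at 81.3 TPM in the control and 35.9 with native let-7a (-1.16), and FOSL2, an AP-1 subunit, at 23.5 and 9.6 (-1.21). The miR-17 libraries were lower for LOXL2, at 31.8 and 29 TPM, and on either side of native let-7a for FOSL2, at 11.8 and 8.7. Against them the mesenchymal and immediate early lists had medians of -0.004 and 0.23.

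Transcripts of the respiratory chain went opposite ways by genome. All 13 mitochondrially encoded mRNAs were lower, against 47.9% of all genes, with a median of -0.30. MT-CO1, a core subunit of complex IV, was at 18548 TPM in the control, 12059 after native let-7a, 14696 with the 19A form, 13947 with native miR-17 and 11781 with the 13A form (-0.62). Of 46 nuclear-encoded subunits, 44 were higher, against 49.9% of all genes, with a median of 0.14. COX4I1, of the same complex, was at 355.1, 475.2, 456.3, 482.9 and 519.6 TPM (0.42). For 11 of the 13 mitochondrial genes the control was the highest library, against 26.5% of all genes. For 31 of the 46 nuclear ones it was the lowest, against 21.2%. Against the miR-17 libraries the medians were 0.04 and -0.10.

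Chaperones and folding enzymes of the endoplasmic reticulum were higher as well, with 13 of 14 above the control and a median of 0.19, led by CANX. MANF, a secreted stress protein, was at 146.1 TPM in the control, 229.7 after native let-7a, 200.2 with the 19A form, 225.1 with native miR-17 and 227.3 with the 13A form (0.65). CRELD2, a folding factor, was at 27, 44.6, 42.9, 43 and 38.1 TPM in that order (0.70). In both the control was the low library and the other 4 lay together. The full endoplasmic reticulum list, which adds degradation genes and sensors, had a median of 0.18, with 21 of 24 higher. EIF2AK3 was the furthest the other way, at 20.2 and 16.5 TPM (-0.28). Native let-7a was the highest library in 10 of the 24, against 20.4% of all genes, and the control the lowest in 8, against 21.2%. Against the miR-17 libraries the median of the full list was 0.13. For p53 targets the median was 0.16, with 17 of 24 higher, and for interferon-stimulated genes 0.14, with 21 of 31 higher. Of all genes, 49.9% were higher. Native let-7a was the highest library in 12 of the 24 p53 targets and the control the lowest in 7. For the 31 interferon-stimulated genes these counts were 8 and 13. Against the miR-17 libraries the p53 median was 0.11 and the interferon median -0.10. SESN2, a stress sensor of mTORC1 that both p53 and ATF4 can induce, was at 32.6, 46.1, 36, 44.8 and 40.8 TPM (0.49). IFI6, an interferon-induced membrane protein, was at 61.5, 98.3, 92, 93.8 and 91.9 TPM (0.67), again with the control alone at the low end. FAS, a death receptor that p53 induces and that is also on the let-7 target list, was at 8.2 and 5.7 TPM (-0.46), beside 5.5, 6.2 and 4.3 in the other 3.

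Lists near 0 were cholesterol synthesis (0.03), heat shock proteins (0.02), epithelial adhesion and keratins (-0.05) and replication-dependent histones (-0.05, 14 genes). Cholesterol synthesis stood at 0.54 against the miR-17 libraries, further above them than any other list here. The RNA silencing machinery had a median of -0.07, with 18 of 29 lower, against 47.9% of all genes. Its argonaute and TNRC6 members had -0.10 (5 of 7 lower), microRNA biogenesis genes -0.10 (5 of 6) and deadenylation and decapping genes -0.01 (8 of 16).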

How the data were processed

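TPM values per gene, rounded to 1 decimal, were deposited as 1 table for the 5 libraries, with hg19 as genome build per the submitters' processing notes. Aligner, counter and annotation: not given in the sources used here. From it, log2(TPM + 1) differences were computed with Python 3.11.15, numpy 2.4.6 and pandas 2.3.3 over genes whose mean reached 1 TPM. The pseudocount understates changes of low genes, and a TPM depends on all other genes of its library. With 1 library a group no test was run, and 2-fold is a rule of size. Sites were searched in the longest 3′ UTR and coding transcripts of GENCODE 29, which uses another build, so no site coordinates are given. It held 97.6% of the genes past the filter. Members and lists were chosen with earlier results of these data known. Genes were named by fixed rules. Per target role these were the 2 lowest and the highest. In each other list at least 0.1 from 0 they were the 3 furthest and 1 opposite. The extremes at 20 TPM or more, the 8 lowest 8mer genes, and the genes 1.5-fold beyond every other library completed the rules. Others were chosen after seeing their values. The scripts were tested on simulated data. A few items are not reported here.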

Additional observations from a re-analysis of the deposited data

How the results depend on the processing

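Counts of 2-fold genes moved with the treatment of low values. They came to 304 lower and 338 higher with a pseudocount of 0.1, 42 and 39 with a pseudocount of 5, 61 and 50 with a filter at 5 TPM, and 286 and 304 with no filter. With a pseudocount of 5 the 8mer median was -0.054. Without mitochondrially encoded genes the median over all genes was -0.031 and that of 7mer and 8mer genes -0.115. With both miR-17 libraries as reference, the medians were -0.083 for known targets, -0.003 for 7mer and 8mer genes and -0.032 for 8mer genes. In the shortest tertile of 3′ UTRs, chosen after seeing the data, the 8mer median was -0.165. Against the miR-17 libraries 7 list medians changed sign: RNA silencing machinery 0.11, hypoxia 0.099, G1/S -0.172, immediate early 0.228, interferon-stimulated -0.097, mitochondrially encoded 0.038 and nuclear respiratory chain -0.099. Of the named genes past 2-fold, 10 did: ANGPTL4 0.192, CA9 0.415, CANX -0.039, HK2 0.043, IFITM1 -0.106, LOXL2 0.234, MNAT1 -0.125, NARS2 -0.018, RIMKLA 0.193 and SLC5A3 0.055. The cause was not tested. Under the other settings no list median of at least 0.05 changed sign. Named genes were run only with pseudocounts of 0.1 and 5 and the miR-17 reference, and with these pseudocounts none past 2-fold changed sign. Depth is unknown, and 1 library a side leaves differences without a measure of error. No paired analysis was possible because each group holds 1 library.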

Other observations

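Metallothioneins, small zinc-binding and copper-binding proteins that metals and glucocorticoids induce, were higher with native let-7a than in the control. MT2A was at 1527 TPM in the control, 2819 after native let-7a, 2757 with the 19A form, 1430 with native miR-17 and 1954 with the 13A form (0.88). MT1E was at 1357, 2609, 2365, 1408 and 1786 TPM in that order (0.94), and MT1X at 235.9, 432.2, 392.8, 244.1 and 329 (0.87). MT1G, at 1.2 and 5.8 TPM, differed by 1.63, and MT1F by 0.62, at 26.6 TPM in the control, 41.3 after native let-7a, 26.5 with the 19A form, 26.9 with native miR-17 and 39.4 with the 13A form. All 5 members whose mean reached 1 TPM were thus above the control with native let-7a. They were chosen after their values were seen, and these genes are near-identical copies among which reads may have been divided in an unknown way.

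DKK4, a Wnt antagonist like DKK1, had the same pattern as DKK1. It was at 25.6 TPM in the control, 37.6 after native let-7a, 24.9 with the 19A form, 14.3 with native miR-17 and 13 with the 13A form (0.54). CDKN1A, the CDK inhibitor p21 and a listed let-7 target with an 8mer, was at 430.8, 483.4, 442.2, 187.6 and 190.7 TPM (0.17). Native let-7a was the highest library in all 3.

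ESR1, the oestrogen receptor alpha gene, was listed at 0 with native let-7a and at 12.6 TPM in the control, 15.9 with the 19A form, 14.6 with native miR-17 and 13.1 with the 13A form. Whether this 0 is an estimate or a failed one was not tested.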
